A study of Mus musculus with 16 samples.

Results

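The mRNAs of the 5 oxidative phosphorylation complexes of the inner mitochondrial membrane were followed in liver, with the subunits encoded by mitochondrial DNA kept apart from those encoded in the nucleus. Members were taken by gene symbol from the normalized count table: the 13 mitochondrial protein genes (ND1 to ND6, ND4L, COX1 to COX3, ATP6, ATP8 and CYTB), and the nuclear symbols beginning with Ndufa, Ndufb, Ndufc, Ndufs or Ndufv and a digit, Sdha to Sdhd, and those beginning with Uqcr, with Cox4 to Cox8 or with Atp5. Nuclear members also had to average 10 normalized counts or more across the livers. This gave 92 members among 30199 genes, 13 of mitochondrial and 79 of nuclear origin. Another 3 nuclear symbols, Cox4i2, Cox6a2 and Cox8b, fell below the minimum. By complex, the nuclear members were 36 of complex I, 4 of complex II, 8 of complex III, 15 of complex IV and 16 of complex V, and the mitochondrial members were 7 of complex I, 1 of complex III, 3 of complex IV and 2 of complex V. One nuclear entry, ENSMUSG00000048967, carries the symbol Ndufa13 in the table but is Yjefn3 in the GENCODE annotation; it was counted by the rule and is called the second Ndufa13 entry here.

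Livers came from 16 female mice, each 5 months old, in 4 genotypes with 4 mice each: Ncoa5+/-Tip30+/-, heterozygous for deletions of both genes; Ncoa5+/-, with intact Tip30; Tip30+/-, with intact Ncoa5; and wild type. Each library is 1 mouse, poly(A)-selected RNA of a piece of whole liver, labelled as mainly hepatocyte; all mice had standard diet. Ncoa5 encodes a nuclear receptor coactivator, and Tip30 is the gene listed as Htatip2. The deletions are not tied to one cell type in the labels, and in bulk RNA fewer cells of a type and less RNA per cell cannot be told apart.

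Complexes I and II pass electrons from NADH and succinate to ubiquinone, complex III passes them on to cytochrome c, and complex IV reduces oxygen; complexes I, III and IV pump protons, and complex V, the ATP synthase, uses the gradient to make ATP. Complex II is wholly nuclear-encoded, while the other complexes join subunits translated inside mitochondria to subunits imported from the cytosol. The mitochondrial genome is transcribed as long polycistronic RNAs from both strands and cut at the transfer RNAs, and all its mRNAs but ND6 lie on the heavy-strand transcript. Mitochondrial mRNAs are counted here by gene, although ATP8 and ATP6 share an mRNA and the reading frames of ND4L and ND4 overlap. Hepatocytes are rich in mitochondria and use respiration to power urea, glucose and lipid synthesis.

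Promoter windows of 300 bases (250 before to 50 after the start site) were read from the RefSeq table of build GRCm38.p6, which matched 66 of the nuclear members. Shown are Sdha and Atp5b, whose mRNAs were called lower below (Ndufs1 and Uqcrc2 have no entry), with Sdhd and Cox6a1, which carry a motif of a known respiratory gene regulator. Capitals mark exact matches, on either strand, to motifs of NRF1 (GCGCATGCG), ETS factors such as GABPA (CCGGAAGT), YY1 (AAGATGGC) and the estrogen-related receptors (TCAAGGTCA); in the window of Cox6a1 the NRF1 letters match on both strands and these matches overlap. Sdha is at chr13:74350191-74350490, minus strand; Atp5b at chr10:128083057-128083356, plus strand; Sdhd at chr9:50603800-50604099, minus strand, with a receptor motif; Cox6a1 at chr5:115348909-115349208, minus strand, with an NRF1 motif.
Sdha: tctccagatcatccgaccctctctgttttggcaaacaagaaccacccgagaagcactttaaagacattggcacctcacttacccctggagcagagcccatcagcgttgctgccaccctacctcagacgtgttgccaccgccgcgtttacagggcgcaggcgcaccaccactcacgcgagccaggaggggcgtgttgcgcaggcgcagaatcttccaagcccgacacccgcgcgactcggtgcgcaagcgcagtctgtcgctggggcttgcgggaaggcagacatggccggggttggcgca
Atp5b: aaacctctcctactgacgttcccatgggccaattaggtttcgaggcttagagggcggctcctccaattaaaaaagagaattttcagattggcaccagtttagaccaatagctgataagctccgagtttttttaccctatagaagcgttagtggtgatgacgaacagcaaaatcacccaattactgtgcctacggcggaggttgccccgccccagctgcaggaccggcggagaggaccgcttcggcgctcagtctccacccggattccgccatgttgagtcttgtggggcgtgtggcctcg
Sdhd: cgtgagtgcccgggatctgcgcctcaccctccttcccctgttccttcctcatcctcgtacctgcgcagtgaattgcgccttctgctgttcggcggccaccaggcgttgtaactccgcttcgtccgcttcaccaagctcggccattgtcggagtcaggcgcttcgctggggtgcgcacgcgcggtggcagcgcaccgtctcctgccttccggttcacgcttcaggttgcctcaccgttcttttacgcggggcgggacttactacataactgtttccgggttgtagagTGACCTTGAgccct
Cox6a1: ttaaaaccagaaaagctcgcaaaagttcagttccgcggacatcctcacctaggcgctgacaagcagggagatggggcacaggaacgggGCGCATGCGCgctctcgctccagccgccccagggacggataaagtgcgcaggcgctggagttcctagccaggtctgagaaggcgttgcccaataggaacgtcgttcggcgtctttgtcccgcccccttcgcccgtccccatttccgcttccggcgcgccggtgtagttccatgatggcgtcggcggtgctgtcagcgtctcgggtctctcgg
Of the 66 members, 8 held the NRF1 motif (12.1%, against 1.95% of all 27025 genes with a window), 5 the ETS motif (7.58%, against 4.31%), 10 the YY1 motif (15.2%, against 3.19%) and 2 the estrogen-related receptor motif (3.03%, against 0.466%). A match is a description of the letters and not a site of binding, and no match says only that these letters are not in the window.

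Between 24740706 and 37939978 reads were assigned to genes per library. Htatip2 read 837 to 1088 normalized counts in Ncoa5+/-Tip30+/- and 685 to 986 in Tip30+/- livers, against 2066 to 2910.4 in Ncoa5+/- and 1835 to 2209 in wild-type livers, with no overlap. Ncoa5 read 369 to 424 in Ncoa5+/-Tip30+/- and 339 to 411 in Ncoa5+/- livers, against 382 to 449.6 in Tip30+/- and 380.2 to 479.5 in wild-type livers; the labels do not say which part of the gene was deleted, so its count does not check that genotype. Hepatocyte genes were abundant, with Alb at 1289680 or more in every liver. The 4 livers Ncoa5+/- 1 and 4 and wild type 1 and 2 stood apart in Zhx2 (8.77 to 26.3 normalized counts, against 167 or more elsewhere). In Ncoa5+/-Tip30+/- 1 and 2 and Ncoa5+/- 1 short transcripts ran high: the 20% of nuclear genes with the shortest transcripts (up to 1425 bases), set against the 20% with the longest (4807 bases or more), lay 0.220, 0.437 and 0.176 log2 above the all-liver mean. Results are given with and without these libraries where they turn on them.

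Mitochondrial mRNAs outweighed nuclear ones. The 13 took 3.35, 4.38, 4.39 and 5.09% of reads in the 4 Ncoa5+/-Tip30+/- livers and 3.14, 4.62, 3.15 and 5.23% in the Ncoa5+/- livers, against 4.72, 5.03, 5.37 and 5.53% in Tip30+/- and 5.45, 4.81, 4.80 and 5.27% in wild-type livers. The means were 4.17 ± 0.848% over the 8 livers with an Ncoa5 deletion and 5.12 ± 0.324% over the 8 without (SD). The lowest livers were Ncoa5+/- 1, Ncoa5+/- 3 and Ncoa5+/-Tip30+/- 1, while Ncoa5+/- 4 and Ncoa5+/-Tip30+/- 4 lay within the range of the other genotypes, so the groups overlapped. The 79 nuclear members together took 1.44 ± 0.164% in Ncoa5+/-Tip30+/-, 1.34 ± 0.0557% in Ncoa5+/-, 1.30 ± 0.0625% in Tip30+/- and 1.31 ± 0.0775% in wild-type livers (SD, n = 4 each), and the 4 ranges overlapped.

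**Figure D1:**
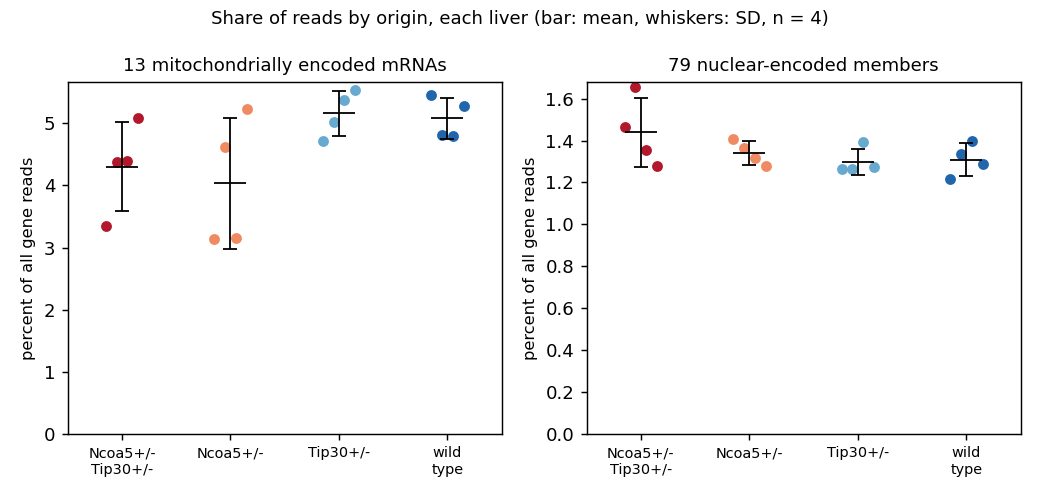
Percent of all gene reads in each liver taken by the 13 mitochondrially encoded mRNAs (left) and by the 79 nuclear-encoded members (right), by genotype; points are livers, bars means and whiskers SD (n = 4). On the left, 6 of the 8 livers with an Ncoa5 deletion lie below the lowest liver without one, at 4.72%, and Ncoa5+/-Tip30+/- 4 and Ncoa5+/- 4 lie above it.

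Per kilobase of exon, the mean level over all livers spanned 7060.1 normalized counts for ATP8 to 293191 for COX1 among mitochondrial members, with a median of 76770. Nuclear members spanned 11.3 (Ndufb2) to 25371 (Cox6a1), with a median of 2279. After Cox6a1, Cox8a reached 11231, Uqcr11 9674, Atp5a1 9666 and Uqcrq 9462. Ndufb2 shares 145 exon bases with Gm42420 on the same strand, and 146 with Braf and 156 with Gm16272 on the opposite strand. Its low level is therefore uncertain. ATP8 and ND4L are 204 and 297 bases long, close to the insert length in the labels, and ATP8 shares 43 bases with ATP6, so their levels are uncertain. Levels within a genotype varied more for mitochondrial members, whose median SD of log2 values was 0.33, than for nuclear members, at 0.17, and for all genes of at least 500 normalized counts, at 0.18. Pearson correlations between members were taken over the 16 livers after each genotype's mean was removed, so differences between genotypes do not enter them. Their median was 0.78 over the 78 mitochondrial pairs, 0.62 over the 3081 nuclear pairs and -0.17 over the 1027 mixed pairs. All pairs share the same libraries and scaling.

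The question the genotypes pose is what losing 1 copy of Ncoa5, of Tip30 or of both does to these mRNAs; each change below is a difference of mean log2(normalized count + 1), tested with limma on all 15263 genes with a mean of at least 10 and called at a Benjamini-Hochberg adjusted p under 0.05. The widest comparison set the 8 livers with an Ncoa5 deletion against the 8 without, as the mean of both Tip30 backgrounds. There, 7 of the 13 mitochondrial members were called, all lower. All 13 had negative values with a median of -0.41, beside a median of -0.01 over all genes. Of the 79 nuclear members 4 were called, all lower, but 52 had positive values and the median was 0.04, which turned to -0.01 without Ncoa5+/-Tip30+/- 2. Of all genes, 1205 were called (7.89%), 602 higher and 603 lower (3.95%). The 4 nuclear calls are thus near the background share. At an unadjusted p under 0.05, 10 mitochondrial members were lower, and 5 nuclear members were lower and 4 higher, where 14.3% of all genes were lower and 11.8% higher. Scaled to the total of nuclear-encoded genes, the split of all calls was 800 higher and 178 lower.

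**Figure D2:**
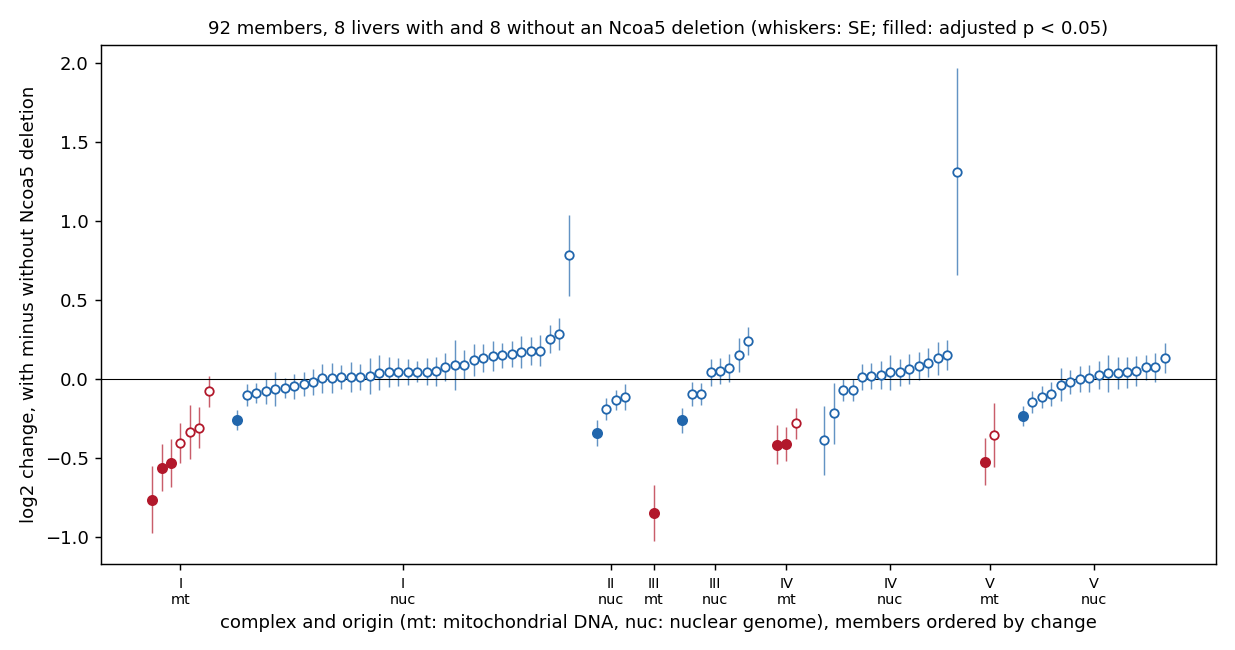
Log2 change of each of the 92 members, 8 livers with minus 8 without an Ncoa5 deletion, by complex and origin and ordered by size; points are fitted changes, whiskers SE, and filled points had an adjusted p under 0.05. The 13 mitochondrial members run from -0.84 to -0.07, while 52 of the 79 nuclear members lie above 0; the highest nuclear point, Cox6b2 at 1.31, has the widest whisker.

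CYTB, the only mitochondrial subunit of complex III and the one that carries its b hemes, had the most negative value. It read 67510.1, 110098, 87707 and 112836 normalized counts in Ncoa5+/-Tip30+/- and 70918, 124663, 66629.7 and 168013 in Ncoa5+/- livers, against 161006, 177414, 193313 and 177192 in Tip30+/- and 194941, 135178, 154837 and 197314 in wild-type livers. The Ncoa5+/-Tip30+/- livers all lay below every liver without an Ncoa5 deletion, and of the Ncoa5+/- livers only number 4 reached into that range. The change was -0.84 ± 0.18 (SE, adjusted p = 0.00974). It was -0.86 ± 0.25 for Ncoa5+/-Tip30+/- against wild type (adjusted p = 0.0691) and -0.76 ± 0.25 for Ncoa5+/- against wild type (adjusted p = 0.246), comparisons that share the wild-type livers. CYTB passed in all 16 fits that left out 1 liver. With the GC score of each library as a covariate the value was -0.80 (adjusted p = 0.0826), and without the 3 livers high in short transcripts it was -0.71 (adjusted p = 0.0626).

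Complex I draws 7 subunits from mitochondrial DNA, all in its membrane arm. ND4, one of its proton-pumping subunits, read 62179.9, 94484, 82839.6 and 107438 normalized counts in Ncoa5+/-Tip30+/- and 64909, 94567, 63042 and 123233 in Ncoa5+/- livers, against 106950, 131971, 141788 and 141656 in Tip30+/- and 133601, 96681, 109767 and 137510 in wild-type livers. Apart from Ncoa5+/-Tip30+/- 4 and Ncoa5+/- 4, every liver with an Ncoa5 deletion lay below every liver without one. ND4 fell by 0.56 on the log2 scale (SE 0.15, adjusted p = 0.0313). ND4L, whose reading frame overlaps that of ND4 by 7 bases, fell by 0.76 (SE 0.21, adjusted p = 0.0408), and ND5, another pumping subunit, fell by 0.53 (SE 0.15, adjusted p = 0.0439). ND2 had -0.40 ± 0.13 (adjusted p = 0.0602), ND3 -0.33 ± 0.17 (adjusted p = 0.228) and ND6 -0.30 ± 0.13 (adjusted p = 0.141), none of them called. ND1, at the junction to the matrix arm, read 97196, 126476, 109144 and 130314 in Ncoa5+/-Tip30+/- and 88502, 106945, 85076 and 110735 in Ncoa5+/- livers, against 95105, 108130, 132004 and 123715 in Tip30+/- and 108819, 98256, 108255 and 121170 in wild-type livers. These ranges overlapped widely, and its value of -0.07 ± 0.10 (adjusted p = 0.669) turned to 0.02 when libraries were scaled to nuclear-encoded genes. ND5 and ND6 overlap by 14 bases on opposite strands, and reads there cannot be told apart without strand.

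COX1, COX2 and COX3 form the catalytic core of complex IV. COX1, the most abundant member, holds the site where oxygen is reduced; it read 317351, 391599 and 465186 normalized counts as lowest, median and highest of the 8 livers with an Ncoa5 deletion, against 427293, 525463 and 611812 in the 8 without. It fell by 0.41 (SE 0.11, adjusted p = 0.0323), as did COX3 (SE 0.12, adjusted p = 0.0474). COX2, which takes electrons from cytochrome c, had -0.28 ± 0.10 (adjusted p = 0.0911). ATP6, part of the proton channel of complex V, read 59018, 83422 and 116932 in livers with an Ncoa5 deletion, against 95004, 119461 and 143709 without (lowest, median and highest of 8 each), and fell by 0.52 (SE 0.15, adjusted p = 0.0410). ATP8, its neighbour in the same mRNA, had -0.35 ± 0.20 (adjusted p = 0.286). For every one of these mRNAs, the ranges with and without an Ncoa5 deletion overlapped.

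**Figure D3:**
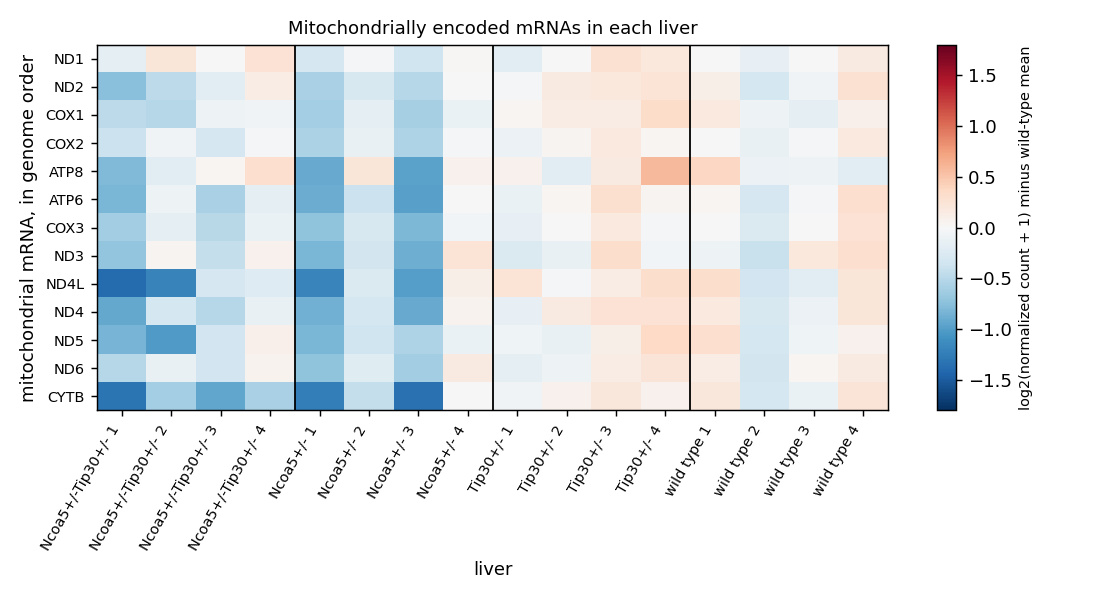
Each mitochondrially encoded mRNA (down, in genome order) in each liver (across), as log2(normalized count + 1) minus the wild-type mean, blue lower and red higher. Ncoa5+/-Tip30+/- 1, Ncoa5+/- 1 and Ncoa5+/- 3 are lowest, with medians over the 13 mRNAs of -0.75, -0.82 and -0.81, while Ncoa5+/-Tip30+/- 4 and Ncoa5+/- 4 lie at -0.02 and 0.00.

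These mitochondrial calls varied with single livers. Between 1 and 8 mRNAs were called when 1 liver was left out. Calls over all 15263 genes moved as well, from 610 without Ncoa5+/-Tip30+/- 2 to 1602 without Ncoa5+/-Tip30+/- 4. The count of mitochondrial mRNAs was 1 without Ncoa5+/-Tip30+/- 1, Ncoa5+/- 1, Tip30+/- 2, 3 or 4, or wild type 1 or 4, was 2 without Ncoa5+/- 3, was 3 without Ncoa5+/-Tip30+/- 2 or 3, Ncoa5+/- 2 or Tip30+/- 1, and was 4 without wild type 3. It was 4 with the Zhx2-low livers removed, where 602 of all genes were called. Without the 3 livers high in short transcripts, all of them with an Ncoa5 deletion, it was 0. Calls over all genes are not given here for that fit or for the 2 covariates that follow. These counts are thus no result about the mitochondrial mRNAs alone. CYTB alone passed with the short-transcript score of each library as a covariate (value -0.85, adjusted p = 0.0470), and none passed with the GC score, on which the mitochondrial mRNAs, with 31.9 to 41.1% GC, lie at or below the low end of the nuclear members' range of 38.4 to 65.6%. Genes with little GC, set against those rich in it, stood at -0.0722 ± 0.140 log2 in livers with an Ncoa5 deletion and 0.0735 ± 0.125 in those without (SD, n = 8 each). The short-minus-long score averaged 0.0783 ± 0.195 with an Ncoa5 deletion and -0.0672 ± 0.0748 without (SD, n = 8 each). Both scores were computed from other genes of the same libraries, so the 2 covariates cannot be fully told apart from the deletion. The 3 livers left out include Ncoa5+/-Tip30+/- 1 and Ncoa5+/- 1, which are among the lowest in mitochondrial mRNAs. The part of base composition or transcript length in the lower mitochondrial counts was not tested.

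Values tended to be more negative farther along the heavy-strand transcript, though not gene by gene. From the start of the 12S ribosomal RNA gene, ND1 begins at 2.68 kb and had -0.07, ND2 at 3.84 kb had -0.40, COX1 at 5.26 kb had -0.41 and COX2 at 6.94 kb had -0.28. ATP8 at 7.70 kb had -0.35, ATP6 at 7.86 kb -0.52, COX3 at 8.54 kb -0.41 and ND3 at 9.39 kb -0.33. ND4L at 9.81 kb had -0.76, ND4 at 10.1 kb -0.56, ND5 at 11.7 kb -0.53 and CYTB at 14.1 kb -0.84. COX2, ATP8, COX3, ND3, ND4 and ND5 were each less negative than a gene before them. Across the 12 heavy-strand mRNAs, which come from the same libraries and one transcript, the change and the distance had a Pearson correlation of -0.79 with the Ncoa5 deletion, -0.80 for Ncoa5+/-Tip30+/- against wild type and -0.86 for Ncoa5+/- against wild type, beside -0.18 for Tip30+/- against wild type. It was also -0.71 for the Tip30 deletion over both Ncoa5 backgrounds, where ND1 had 0.15 and CYTB -0.02 (limma adjusted p = 0.569 and 0.980), so a slope of this kind was seen without called genes as well. The 12S RNA (mt-Rnr1) had -0.01 ± 0.16 and the 16S RNA (mt-Rnr2) 0.08 ± 0.15 with the Ncoa5 deletion, neither called; both are only what is left of ribosomal RNA after poly(A) selection. ND6, on the light strand, had -0.30.

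**Figure D4:**
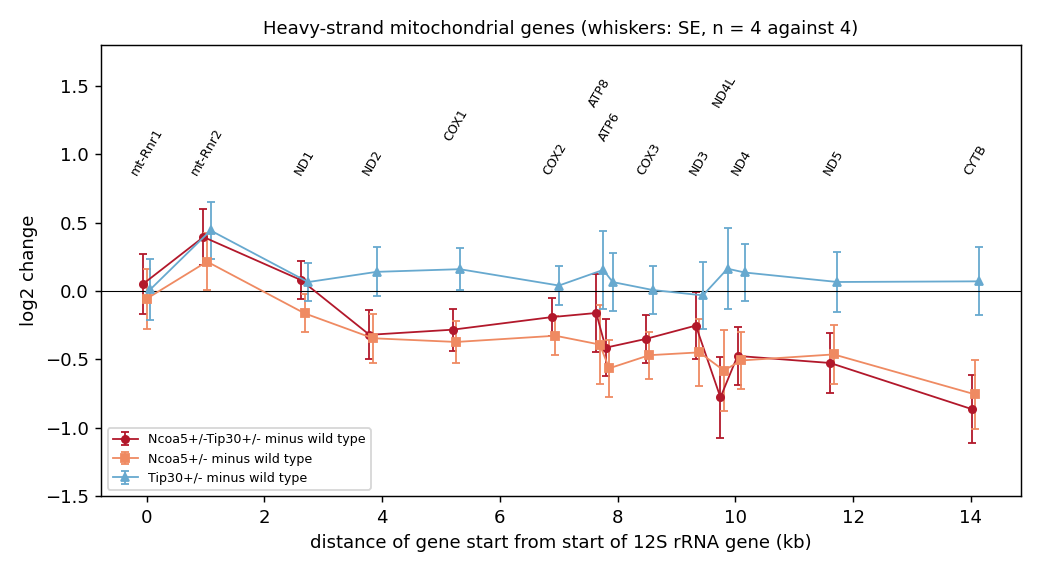
Log2 change against wild type of the heavy-strand mitochondrial genes, by distance of the gene's start from the start of the 12S ribosomal RNA gene, for Ncoa5+/-Tip30+/- (circles), Ncoa5+/- (squares) and Tip30+/- (triangles); whiskers are SE (n = 4 against 4). Both genotypes with an Ncoa5 deletion are lowest at CYTB, with -0.86 in Ncoa5+/-Tip30+/- and -0.76 in Ncoa5+/-, while Tip30+/- stays between -0.03 and 0.16 for the mRNAs.

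The ratio of CYTB to ND1 within a liver, which needs no scaling between libraries, was 0.695, 0.871, 0.804 and 0.866 in Ncoa5+/-Tip30+/- and 0.801, 1.17, 0.783 and 1.52 in Ncoa5+/- livers, against 1.69, 1.64, 1.46 and 1.43 in Tip30+/- and 1.79, 1.38, 1.43 and 1.63 in wild-type livers. All 4 Ncoa5+/-Tip30+/- livers and 3 of 4 Ncoa5+/- livers lay below all 8 without an Ncoa5 deletion, and Ncoa5+/- 4 lay among them. The pair was chosen after the values were seen, so the ratio is a description with no test.

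Among nuclear members of complex I, Ndufs1, the largest subunit and a carrier of iron-sulfur clusters in the matrix arm (chr1:63143596-63176833, build GRCm38), was called lower. It read 2163, 1842, 2177 and 2304 normalized counts in Ncoa5+/-Tip30+/- and 2038, 2188, 2355 and 1959 in Ncoa5+/- livers, against 2368, 2415, 2714 and 2681 in Tip30+/- and 2663, 2497, 2399 and 2580.3 in wild-type livers. Every liver with an Ncoa5 deletion lay below every liver without one. The change was -0.26 ± 0.07 (SE, adjusted p = 0.0265), and it passed in 10 of 16 fits that left out 1 liver; 489 of its exon bases overlap Ino80dos on the opposite strand. The other 35 entries of the complex did not pass, 27 of the 36 being positive. Ndufv1, the subunit that binds NADH, averaged 6082 ± 415 normalized counts in Ncoa5+/-Tip30+/- livers, against 5959 ± 235 in wild type (SD, n = 4 each), and was among the 3 least variable nuclear members. The second Ndufa13 entry read 32.3, 76.3 and 87.6 as lowest, median and highest with an Ncoa5 deletion, against 20.6, 39.1 and 62.7 without, and had 0.78 ± 0.25 (adjusted p = 0.0667); it stands among the 3 most variable.

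All 4 subunits of complex II, which also serves the tricarboxylic acid cycle as succinate dehydrogenase, had negative values, with a median of -0.16. Sdha, the flavoprotein that oxidizes succinate (chr13:74322254-74350280), read 12111, 9414, 12630.3 and 13289.5 normalized counts in Ncoa5+/-Tip30+/- and 12426, 12291, 15161 and 11465 in Ncoa5+/- livers, against 15713, 15462, 16869 and 17094 in Tip30+/- and 14761, 13843, 14267 and 16422 in wild-type livers. All 4 Ncoa5+/-Tip30+/- livers lay below every liver without an Ncoa5 deletion, whereas Ncoa5+/- 3 lay among those. Sdha fell by 0.34 (SE 0.08, adjusted p = 0.0217) and passed in all 16 fits that left out 1 liver; its highest adjusted p over the 30 alternatives was 0.199, with the GC covariate. It was also the only member called for Ncoa5+/-Tip30+/- against Tip30+/- (-0.47 ± 0.12, adjusted p = 0.0419). Sdhd, a membrane anchor, had -0.19 ± 0.07 (adjusted p = 0.0980), and Sdhb, the iron-sulfur subunit, -0.11 ± 0.08 (adjusted p = 0.421).

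In complex III, Uqcrc2, a core subunit (chr7:120635176-120659524), read 3563, 3913 and 4863 normalized counts as lowest, median and highest of 8 livers with an Ncoa5 deletion, against 3984, 4925 and 5426 of 8 without, and fell by 0.26 (SE 0.08, adjusted p = 0.0481). It passed in 3 of 16 fits that left out 1 liver, and 19.7% of its exon bases overlap a gene on the opposite strand. The small subunit Uqcr10 had 0.24 ± 0.09 (adjusted p = 0.0959), in the other direction. Uqcrq and Uqcrc1, the most abundant, averaged 20264 ± 3451 and 8836 ± 838 in Ncoa5+/-Tip30+/- livers, against 16413 ± 3629 and 8902 ± 504 in wild type. No nuclear member of complex IV was called, and 11 of 15 were positive with a median of 0.04, while the 3 mitochondrial subunits of the same enzyme had a median of -0.41. In complex V, Atp5b, the catalytic beta subunit (chr10:128083273-128090391), read 28377, 32966 and 36909.6 with an Ncoa5 deletion, against 35783, 38081 and 42162 without (lowest, median and highest), and fell by 0.23 (SE 0.07, adjusted p = 0.0408); it passed in 5 of 16 fits that left out 1 liver. The ranges with and without an Ncoa5 deletion overlapped for both Uqcrc2 and Atp5b. Atp5b had the smallest spread of all nuclear members, an SD of 0.08 log2 within genotypes. Atp5a1, the alpha subunit and partner of Atp5b, averaged 28169 ± 1514 in Ncoa5+/-Tip30+/- and 30831 ± 866 in wild-type livers, and Atp5e, a small subunit of the central stalk, had 0.13 ± 0.10 (adjusted p = 0.394).

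**Figure D5:**
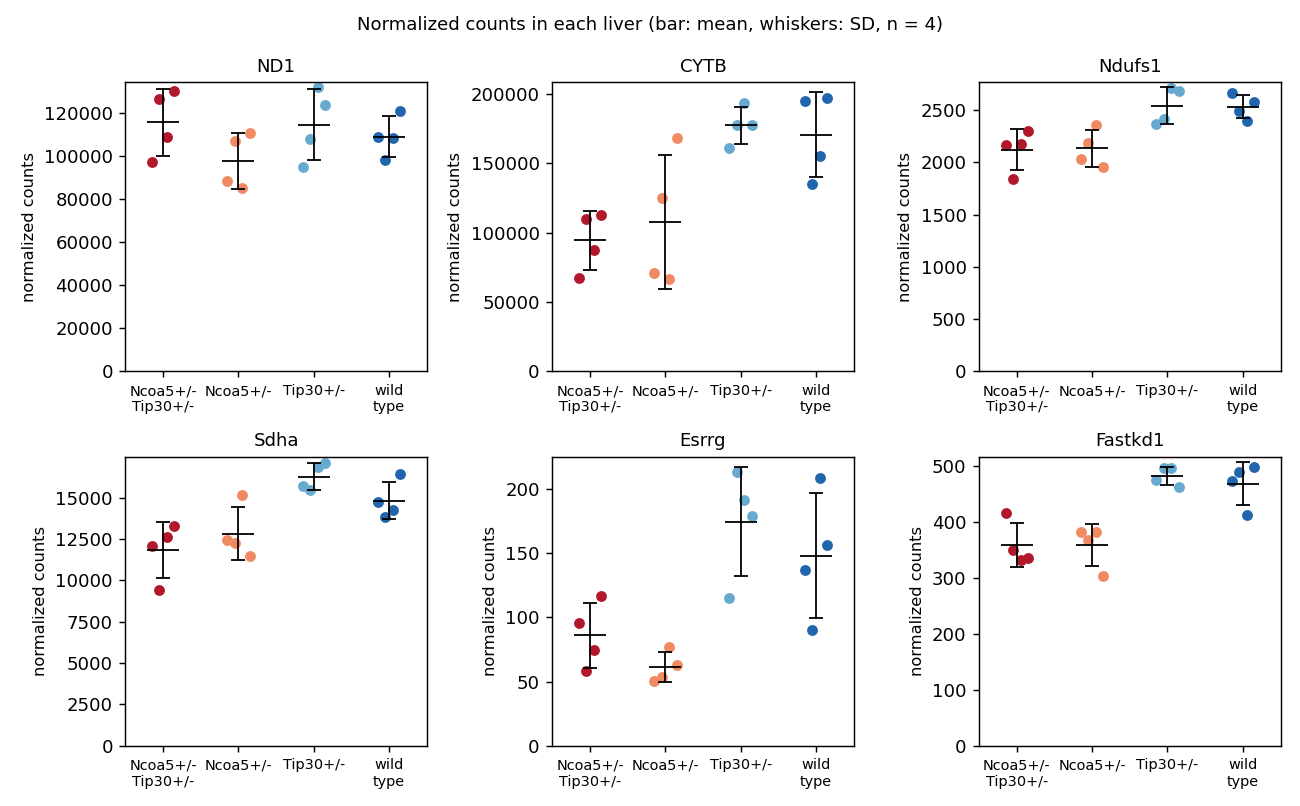
Normalized counts in each liver of ND1, CYTB, Ndufs1, Sdha, Esrrg and Fastkd1, by genotype; points are livers, bars means and whiskers SD (n = 4). The Ndufs1 points with an Ncoa5 deletion end at 2355, below the lowest point without one at 2368, whereas the ND1 points overlap across all genotypes.

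The nuclear calls also varied with single livers. Their number was 1 without Ncoa5+/-Tip30+/- 2, Ncoa5+/- 4, Tip30+/- 3 or 4, or wild type 1 or 4, was 2 without Ncoa5+/-Tip30+/- 3, Ncoa5+/- 1 or 2, or Tip30+/- 1 or 2, and was 6 without Ncoa5+/-Tip30+/- 4. It was 0 without the livers low in Zhx2, without those high in short transcripts, and with either covariate. With 1 liver left out, calls over all 15263 genes were fewest without Ncoa5+/-Tip30+/- 2 (610) and most without Ncoa5+/-Tip30+/- 4 (1602). Without the livers low in Zhx2, 602 of all genes were called. For Ncoa5+/-Tip30+/- against wild type, the length covariate took calls over all genes from 407 to 88. For the Ncoa5 deletion, calls over all genes with the length or GC covariate, or without livers high in short transcripts, are not given here. The 0 in those fits is thus no result about the members alone. Direction went with transcript length: 39 of the 46 nuclear members under 1 kb were positive (median 0.05), against 10 of the 25 from 1 to under 2 kb (median -0.05) and 3 of the 8 of 2 kb or more (median -0.08). Over all genes tested the medians were 0.06, 0.03 and -0.04 in the same classes. Spearman's rho between length and change was -0.50 over the 79 nuclear members and -0.17 over 15245 genes, as a description across genes of the same libraries. How far length accounts for the nuclear values was not tested.

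Complexes IV and V have paired subunit genes used by different tissues. Cox4i1, the general form of subunit 4, averaged 11059.9 ± 1252 normalized counts in Ncoa5+/-Tip30+/- and 9597 ± 1844 in wild-type livers, whereas Cox4i2, which is known from lung, had a mean of 7.17 over all livers. Cox6a1 and Cox8a, the forms of liver, averaged 18828 ± 3681 and 7325 ± 1309.9 in Ncoa5+/-Tip30+/- and 16603 ± 1492 and 6762 ± 838 in wild-type livers. Their heart and muscle forms Cox6a2 and Cox8b averaged 1.73 and 1.65. Cox7a1, another muscle form, read 23.8 to 47.04 in Ncoa5+/-Tip30+/-, 26.3 to 39.4 in Ncoa5+/-, 30.7 to 60.3 in Tip30+/- and 29.96 to 80.98 in wild-type livers, beside 2979 to 4729, 2889 to 3852, 2907 to 3801 and 2809 to 3733 for the liver form Cox7a2. Cox7a1 had -0.39 ± 0.22 (adjusted p = 0.273) with the Ncoa5 deletion. Cox7a2l, which helps to join complexes III and IV, averaged 2318 ± 106 in Ncoa5+/-Tip30+/- and 2409 ± 261 in wild-type livers. Ndufa4l2, a relative of the complex IV subunit Ndufa4 that is induced in low oxygen, was near the bottom at 22.4, 36.02 and 52.7 with an Ncoa5 deletion, against 19.98, 40.9 and 68.2 without (lowest, median and highest), and had -0.22 ± 0.19 (adjusted p = 0.512). Of the muscle and brown fat markers Ckm, Acta1, Myh4, Ucp1 and Cidea none reached the mean needed for a test.

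Cox6b2, the form of subunit 6b known from testis, was the most variable nuclear member. It read 791, 1855, 603 and 591 normalized counts in Ncoa5+/-Tip30+/- and 510.2, 1022, 529.9 and 845 in Ncoa5+/- livers, against 293, 344, 856 and 779 in Tip30+/- and 472, 339.7, 14.98 and 486 in wild-type livers. Wild type 3 was far below all other livers and Ncoa5+/-Tip30+/- 2 far above. Its change of 1.31 ± 0.66 (adjusted p = 0.226) did not pass and was 0.72 without wild type 3, and within-genotype values spread by an SD of 1.34 log2. Its general counterpart Cox6b1 averaged 5167 ± 819 in Ncoa5+/-Tip30+/- and 4795 ± 460.4 in wild-type livers. Subunit c of complex V, which forms the rotor ring, is encoded by Atp5g1, Atp5g2 and Atp5g3 as one mature protein. Atp5g3 led per kilobase of exon at 4982 over all livers, followed by Atp5g2 at 2714 and Atp5g1 at 1486; none of the 3 was called.

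Taken one genotype at a time, few or no members passed. For Ncoa5+/-Tip30+/- against wild type, limma called no member (2.67% of all genes); at an unadjusted p under 0.05, 4 of 13 mitochondrial members were lower, and 5 of 79 nuclear members were lower and 8 higher, where 12.2% of all genes were lower and 9.79% higher. DESeq2 called 1 of each origin, among 1044 of all 15263 genes, and edgeR none, among 367. The medians were -0.32 for mitochondrial and 0.12 for nuclear members. For Ncoa5+/- against wild type, no member was called by limma (0.557% of all genes), edgeR or DESeq2; 7 mitochondrial members were lower at an unadjusted p under 0.05, against 1 nuclear member lower and 1 higher, where 3.85% of all genes were lower and 6.35% higher, and the medians were -0.45 and -0.01. For Ncoa5+/-Tip30+/- against Tip30+/-, Sdha alone was called by limma (3.07% of all genes), not by edgeR. DESeq2 called 3 nuclear and 2 mitochondrial members there, among 1118 of all 15263 genes. The mitochondrial median was -0.44 and the nuclear one 0.07, which turned to -0.02 without Ncoa5+/-Tip30+/- 2. Scaled to the total of nuclear-encoded genes, the median of all genes in that comparison moved from -0.02 to 0.12. With 1 liver left out, the nuclear median ran from -0.05 to 0.04 for Ncoa5+/- against wild type, where it turned positive without Ncoa5+/- 3 or 4 or wild type 3 or 4, and from 0.04 to 0.18 for Ncoa5+/-Tip30+/- against wild type, where it was lowest without Ncoa5+/-Tip30+/- 2. These comparisons share livers, so their values are not independent.

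Tip30 heterozygosity moved none of them past the threshold. For Tip30+/- against wild type, limma, edgeR and DESeq2 called no member (0.0131% of all genes by limma), of the members only Ndufa4l2 had an unadjusted p under 0.05, being higher as were 3.48% of all genes (0.67 ± 0.28, adjusted p = 0.635), and the medians were 0.07 for mitochondrial and 0.06 for nuclear members. CYTB had 0.07 ± 0.25 there and Sdha 0.14 ± 0.12. Over both Ncoa5 backgrounds the 3 tools again called no member (0.131% of all genes by limma, 243 genes by DESeq2). At an unadjusted p under 0.05 in limma, 3 nuclear members were higher, where 5.12% of all genes were, and both medians were 0.08. Positive values were held by 71 of the 79 nuclear and 11 of the 13 mitochondrial members, beside 7627 of all 15263 genes. For Ncoa5+/-Tip30+/- against Ncoa5+/-, no member was called by any of the 3 tools (0.0197% of all genes by limma, 32 genes by DESeq2). There, 3 nuclear members were higher at an unadjusted p under 0.05 in limma, where 4.25% of all genes were, with medians of 0.12 and 0.11. The interaction asks whether the Ncoa5 deletion acts differently with and without the Tip30 deletion. It called no member with limma, edgeR or DESeq2 (0% of all genes by limma, 1 gene by DESeq2), and no member had an unadjusted p under 0.05 in limma. Its medians were 0.08 for mitochondrial and 0.04 for nuclear members. With 1 liver left out they ran from -0.11 to 0.19 and from -0.05 to 0.11, lowest without Ncoa5+/- 3 and without Ncoa5+/-Tip30+/- 2. The mitochondrial median of Tip30+/- against wild type turned to -0.01 without wild type 2, and that of Ncoa5+/-Tip30+/- against Ncoa5+/- ran from 0.01 without Ncoa5+/- 1 to 0.23 without Ncoa5+/- 4.

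Other genes of mitochondrial respiration were read from 10 lists, 142 symbols of which 138 could be tested. With the Ncoa5 deletion 3 were called higher and 11 lower, 10.1% in all, so that these calls were mostly lower. Of all genes 7.89% were called, split evenly into 3.94% higher and 3.95% lower. These shares are the background for the counts of each list below. Among 13 regulators of mitochondrial biogenesis, 0 were called higher and 2 lower, with a median of -0.22 beside -0.01 for all genes. Esrrg, the estrogen-related receptor gamma that activates respiratory genes in heart and muscle, read 95.3, 58.3, 74.5 and 117 normalized counts in Ncoa5+/-Tip30+/- and 50.7, 53.97, 77.04 and 63.3 in Ncoa5+/- livers, against 115, 213, 192 and 179 in Tip30+/- and 137, 90.4, 209 and 157 in wild-type livers. Ncoa5+/- livers lay below all 8 livers without an Ncoa5 deletion, and Ncoa5+/-Tip30+/- 1 and 4 overlapped with wild type 2 and Tip30+/- 1. Esrrg fell by 1.12 (SE 0.19, adjusted p = 0.00191) and passed in all 30 alternatives. Gabpa, the ETS factor that binds respiratory promoters, fell by 0.38 (SE 0.11, adjusted p = 0.0439) and passed in 11 of 30; it shares 397 exon bases with the member Atp5j on the opposite strand.

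Of 23 tested genes of mitochondrial transcription and RNA handling, 3 were positive, 0 were called higher and 2 lower (3.95% of all genes were lower), with a median of -0.19. Fastkd1, a mitochondrial RNA-binding protein, read 417, 351, 333 and 336 in Ncoa5+/-Tip30+/- and 382, 369, 382 and 304 in Ncoa5+/- livers, against 476, 496, 497 and 463 in Tip30+/- and 475, 489, 413 and 498 in wild-type livers. The groups touched at 1 liver each, Ncoa5+/-Tip30+/- 1 and wild type 3. It fell by 0.41 (SE 0.08, adjusted p = 0.00435) and passed in 29 of 30 alternatives. Tfb2m, which lets the mitochondrial RNA polymerase open its promoters, fell by 0.38 (SE 0.11, adjusted p = 0.0353) and passed in 15 of 30. The 10 genes of mitochondrial DNA replication had 0 calls and a median of -0.02; Polg, the DNA polymerase, had -0.30 ± 0.12 (adjusted p = 0.124) and the helicase Twnk -0.17 ± 0.07 (adjusted p = 0.144).

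Of the 13 tricarboxylic acid cycle genes, 1 was positive, 3 were called lower (3.95% of all genes were lower) and the median was -0.16. Idh3a, a catalytic subunit of the NAD-dependent isocitrate dehydrogenase, fell by 0.39 (SE 0.09, adjusted p = 0.0167), Sucla2, of succinyl-CoA synthetase, by 0.30 (SE 0.07, adjusted p = 0.0218) and Dld, the dihydrolipoamide dehydrogenase, by 0.29 (SE 0.08, adjusted p = 0.0402). They passed in 27, 26 and 13 of 30 alternatives. Of 15 electron carriers and their reductases, Etfdh, which feeds electrons of fatty acid oxidation to ubiquinone, fell by 0.40 (SE 0.10, adjusted p = 0.0289), and Coq7, an enzyme of ubiquinone synthesis, rose by 0.44 (SE 0.11, adjusted p = 0.0265). Coq7 averaged 751 normalized counts with an Ncoa5 deletion and 545 without. Of 11 inner-membrane carriers, the aspartate-glutamate carrier Slc25a13 fell by 0.36 (SE 0.09, adjusted p = 0.0310); these 3 passed in 18, 21 and 20 of 30 alternatives.

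Assembly factors split. Of 22 for complex IV, Coa4 rose by 0.38 (SE 0.10, adjusted p = 0.0325) and Cox19 by 0.27 (SE 0.07, adjusted p = 0.0353), while Coa5 fell by 0.25 (SE 0.07, adjusted p = 0.0299) and Cox15, needed for its heme A, by 0.28 (SE 0.08, adjusted p = 0.0353); each passed in 14 to 17 of 30 alternatives. With the Ncoa5 deletion over both Tip30 backgrounds, none of the 15 for complex I, 10 for complexes II and III or 6 for complex V passed with limma. Their leading values were -0.28 ± 0.09 for Acad9 (adjusted p = 0.0666), -0.20 ± 0.08 for Tmem126b (adjusted p = 0.113), 0.41 ± 0.16 for Sdhaf1 (adjusted p = 0.120), -0.16 ± 0.08 for Uqcc1 (adjusted p = 0.225), -0.22 ± 0.07 for Tmem70 (adjusted p = 0.0520) and -0.18 ± 0.06 for Atpaf2 (adjusted p = 0.0656).

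Some markers of lymphocytes, of stellate cells and matrix, and of cholangiocytes were called higher with the Ncoa5 deletion. Of 9 lymphocyte markers 5 were called higher (Cd3g, Nkg7, Cd3e, Cd8b1 and Cd8a), where 3.94% of all genes were, the sum of the 9 running from 169 to 331 normalized counts with an Ncoa5 deletion, against 64.5 to 211 without. Of 6 stellate and matrix markers Col1a1 and Col3a1, and of 5 cholangiocyte markers Spp1, were called higher, with sums of 3937 to 6340 and 1061 to 2080 with an Ncoa5 deletion, against 3846 to 4867 and 593 to 1659 without. Of 8 hepatocyte markers none was called; their median was -0.28 and their sum ran from 2203300 to 3111210 with an Ncoa5 deletion, against 2341580 to 3510300 without. No marker of macrophages (7 tested, median 0.34), neutrophils (2 tested, median 0.75) or sinusoidal endothelium (5 tested, median 0.04) was called. The part of the cell makeup in the values of the members was not tested.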

How the data were processed

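Liver mRNA of 16 mice was sequenced from poly(A)-selected, randomly primed libraries. Per the submitters' processing notes, Trimmomatic 0.36, STAR 2.6.0c and DESeq2 1.28.1 were used with GRCm38; a counting program and strand setting were not given in the sources used here. The authors deposited a signal table of counts divided by DESeq2 size factors. Dividing by each library's step gave whole reads for 100% of values (tolerance 0.0001). Tests on log2(normalized count + 1) used limma 3.58.1 (R 4.3.3) on all genes with a mean of at least 10, with 1 mean per genotype and Benjamini-Hochberg adjustment; edgeR 4.0.16 and DESeq2 1.42.0 on the recovered reads were alternatives. The scripts were tested on simulated data. Replicates are separate mice by their tags. Named were all mitochondrial members, called nuclear members, the 2 most abundant and the 2 with the smallest F-test p of each complex, the 3 most and 3 least variable, tissue isoforms, and up to 4 genes per further list; genes named for a level per kilobase were chosen after their values were seen. One member that this rule names is not reported here. Members, lists and rules were chosen with earlier results of these data known. Summaries used Python 3.11.15. Transcript lengths and GC came from GENCODE M21.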

Additional observations from a re-analysis of the deposited data

Results flagged for a closer look

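In 6 of 180 groups of 4 livers 1 liver stood far from the other 3; chance gives such a gap in about 1 of 20 groups. Cox6b2 read 1855 normalized counts in Ncoa5+/-Tip30+/- 2, against 591 to 791 in the other livers of that genotype. The second Ndufa13 entry read 61.9 in Ncoa5+/-Tip30+/- 4, where the others had 77.1 to 79.8. ATP8 read 1925 in wild type 1, where the others had 1301 to 1389. The nuclear members took 1.39% of reads in Tip30+/- 3, where the highest of the others had 1.27%. The short-minus-long transcript score was -0.0900 in Tip30+/- 4, where the nearest liver had -0.0516, and the GC-poor-minus-GC-rich score was -0.0676 in Tip30+/- 1, where the nearest had 0.136.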

How the results depend on the processing

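No paired analysis was possible because the labels give the mice no shared replicate numbers. The cause of the shifts below was not tested. The mouse tag covariate marks only whether the tag number of a mouse is below 4300. For the Ncoa5 deletion over both Tip30 backgrounds, the number of nuclear members called (4) became 2 with edgeR, 7 with DESeq2, 1 without a filter on low genes, 7 with the mouse tag as a covariate, and 0 without livers low in Zhx2, with the length or GC covariate, or without livers high in short transcripts; it ran from 1 to 6 with 1 liver left out. The mitochondrial number (7) became 3 with edgeR, without a filter or without robust moderation, 4 without livers low in Zhx2, 1 when scaled to nuclear-encoded genes or with the length covariate, and 0 with the GC covariate or without livers high in short transcripts. It ran from 1 to 8 with 1 liver left out. ND2, which is not among the 7, passed in 5 of the 30 alternatives, 3 of them with 1 liver left out. Calls over all 15263 genes (1205) moved too, to 1126 with edgeR, 1803 with DESeq2 and 1937 with the tag covariate. They were 1167 without robust moderation, 978 scaled to nuclear-encoded genes and 602 without livers low in Zhx2. They are not given here with the length or GC covariate or without livers high in short transcripts. With 1 liver left out they ran from 610 to 1602, and without a filter 907 of 30199 genes were called. For Ncoa5+/-Tip30+/- against Tip30+/-, the nuclear number (1) was 0 with edgeR, TMM scaling, either covariate, or without livers low in Zhx2 or high in short transcripts, 2 with a minimum mean of 50, 3 with DESeq2 and 4 with the tag covariate, and 0 to 2 with 1 liver left out. The mitochondrial number (0) was 2 with DESeq2, 4 with the tag covariate, 1 without livers low in Zhx2, and 0 to 3 with 1 liver left out. Over all genes, 469 were called in that comparison, 407 with edgeR, 402 with TMM scaling, 1118 with DESeq2 and 1344 with the tag covariate. The number was 420 without livers low in Zhx2, 427 with a minimum mean of 50, and 107 to 764 with 1 liver left out. It is not given here with the length or GC covariate or without livers high in short transcripts. For Ncoa5+/-Tip30+/- against wild type, DESeq2 called 1 nuclear and 1 mitochondrial member, among 1044 of all genes. Leaving out 1 liver gave 0 to 2 and 0 to 1, where calls over all genes ran from 88 to 846. The nuclear median turned to -0.0427 with the length covariate and -0.0487 without livers high in short transcripts there, and to -0.0940 and -0.110 against Tip30+/-. The interaction's nuclear median was 0.193 without livers low in Zhx2. Signs turned for Atp5e (-0.0173 with the length covariate) and ND1 (0.0170 scaled to nuclear-encoded genes) with the Ncoa5 deletion. ATP8 against wild type in Ncoa5+/-Tip30+/- turned to 0.0123 with the length covariate and 0.169 without livers high in short transcripts, and ran from -0.314 to 0.0503 with 1 liver left out. Of 14 other named nuclear members, 13 changed sign in at least 1 of 30 alternatives and 0 passed in any. Scaled to nuclear-encoded genes, all calls split 228 higher and 64 lower (213 and 194 otherwise) for Ncoa5+/-Tip30+/- against wild type, and 398 and 60 (245 and 224) against Tip30+/-. The length, GC and short-transcript alternatives were chosen after seeing the data.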
